A study of Mus musculus with 6 samples.

Results

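The genes described here are 10 acute-phase genes of mouse liver, namely the serum amyloid A genes Saa1, Saa2, Saa3 and Saa4, the orosomucoid genes Orm1, Orm2 and Orm3, and the genes of haptoglobin (Hp), lipocalin 2 (Lcn2) and C-reactive protein (Crp). They were chosen by gene symbol and are 10 of the 54446 genes that the count tables list. All 10 passed the filter on low counts. RNA-seq libraries were made from the livers of 3 wild-type (WT) mice and 3 Fmo5-/- mice, 1 per mouse. According to the labels and the study's methods, all were male and 32 weeks of age, the WT mice were C57BL/6J, the Fmo5-/- mice, which lack a working gene for flavin-containing monooxygenase 5, were generated on a C57BL/6J background, and all were fed standard chow, with no treatment named. The libraries held 44886286 to 52338675 counts on genes. A count of 0 allows up to 3 counts in a library, which is between 0.0573 and 0.0668 CPM (counts scaled to library size), and such limits cover counting error only.

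The acute-phase response is the change in plasma proteins that follows infection, injury or inflammation. Hepatocytes make most of these proteins, mainly under the cytokines IL-6 and IL-1, which act through STAT3, NF-kB and C/EBP transcription factors. In the mouse, serum amyloid A rises by far more than C-reactive protein, which in this species is made at a steady level and changes little. Saa3 is also made by macrophages and adipocytes, and Lcn2 by neutrophils and macrophages, so that in whole liver their RNA can come from more than hepatocytes. In a bulk library, a change in the number of cells of a type and a change in RNA per cell cannot be told apart.

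The label of each library was checked on the targeted gene. Fmo5 had 39808, 37405 and 30239.7 normalized counts in WT mice 1, 2 and 3 and 1071, 1102 and 1194 in the Fmo5-/- mice, a log2 fold change of -5.00 ± 0.14 (SE; adjusted p = 2.79e-07, edgeR quasi-likelihood test). A normalized count is a library's count scaled to the mean effective size of the 6 libraries. Fold changes are Fmo5-/- over WT throughout, and mice are numbered within a genotype with no pairing between genotypes. The 8 hepatocyte markers, which include Alb and Cps1, had a summed level of 5307757 to 6566661 normalized counts in WT and 5171865 to 6555158 in Fmo5-/- mice, so the tissue carried the markers of its label in every library.

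Several members are near-identical copies, and this sets how far their counts can be told apart. Saa1 (chr7:46740497-46742980, minus strand) and Saa2 (chr7:46751790-46754313, plus strand) lie beside Saa3 (chr7:46711998-46715700, minus strand) and Saa4 (chr7:46727998-46732603, minus strand), and Orm1 (chr4:63344560-63348163), Orm3 (chr4:63356162-63359511) and Orm2 (chr4:63362449-63365878) lie side by side on the plus strand. All positions are of build mm10 (GRCm38) with the GENCODE vM21 annotation. The coding sequences of Saa1 and Saa2 were 95.1% identical, and those of Orm1 and Orm2 were 89.9% identical. The sequences of the 150 bases from the start codon are shown for both pairs (GENCODE vM21), with each base that differs from the partner in capitals, because these bases are what lets a read be given to 1 copy.
Saa1: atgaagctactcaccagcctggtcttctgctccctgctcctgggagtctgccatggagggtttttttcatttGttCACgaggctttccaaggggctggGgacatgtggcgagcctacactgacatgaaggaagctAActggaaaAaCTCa
Saa2: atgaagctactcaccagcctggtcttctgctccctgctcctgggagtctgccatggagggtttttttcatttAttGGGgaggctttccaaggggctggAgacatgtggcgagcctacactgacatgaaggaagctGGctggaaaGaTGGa
Orm1: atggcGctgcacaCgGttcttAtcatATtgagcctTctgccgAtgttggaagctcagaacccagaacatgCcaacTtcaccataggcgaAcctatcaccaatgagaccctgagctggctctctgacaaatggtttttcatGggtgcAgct
Orm2: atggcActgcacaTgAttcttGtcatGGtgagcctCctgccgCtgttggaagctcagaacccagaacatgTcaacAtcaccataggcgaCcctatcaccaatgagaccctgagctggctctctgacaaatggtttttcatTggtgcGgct

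Within these 150 bases, Saa1 and Saa2 differed at 11 positions and Orm1 and Orm2 at 13. Reads were 75 bases long, and 4.67% of the 75-base windows of the spliced Saa1 transcript also occurred in Saa2, 4.70% of those of Saa2 in Saa1, 13.8% of those of Orm1 in Orm2, and 14.0% of those of Orm2 in Orm1 or Orm3. Such reads map to several places and were left out of the counts. For Orm3 the share was 0.143%, and for the spliced transcripts of Saa3, Saa4, Hp, Lcn2 and Crp it was 0. Over all annotated transcripts, retained introns included, the share was higher for Saa1 (18.5%), Saa2 (17.8%) and Saa3 (1.54%, with 60 other genes). No other gene overlapped the exons of any member. Hp lies at chr8:109575128-109579172 (minus strand), Lcn2 at chr2:32384633-32388252 (minus strand) and Crp at chr1:172698055-172833031 (plus strand).

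Of the 10 members, 0 passed an adjusted p of 0.05 in edgeR's quasi-likelihood test, in either direction, where 1.37% of the 16734 genes tested were called, 0.675% higher and 0.693% lower. At an unadjusted p under 0.05, 4 of 10 members were higher (Saa3, Lcn2, Orm2 and Orm1) and 0 lower, beside 11.6% of all genes higher and 10.2% lower. These same 4 were also the members whose genotypes did not overlap, with every Fmo5-/- mouse above every WT mouse, which held for 13.9% of all genes. The Wald test of DESeq2 called 2 of 10 members higher, Saa3 and Lcn2, beside 4.75% of genes higher and 4.21% lower. Other settings of edgeR also made calls, namely Hp and Orm3 with no filter except at least 1 count (beside 3.2% of genes) and Saa3 with a fit that is not robust (beside 0.52%). The estimated fold change was above 0 for 9 of 10 members, beside 50.8% of all genes, and the median log2 fold change was 0.81 over the members and 0.0058 over all genes tested. WT mouse 2 and Fmo5-/- mouse 2 were high in most members, and the results that rest on them are also given without them. The plot of values by mouse shows how wide the members spread within a genotype.

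**Figure D1:**
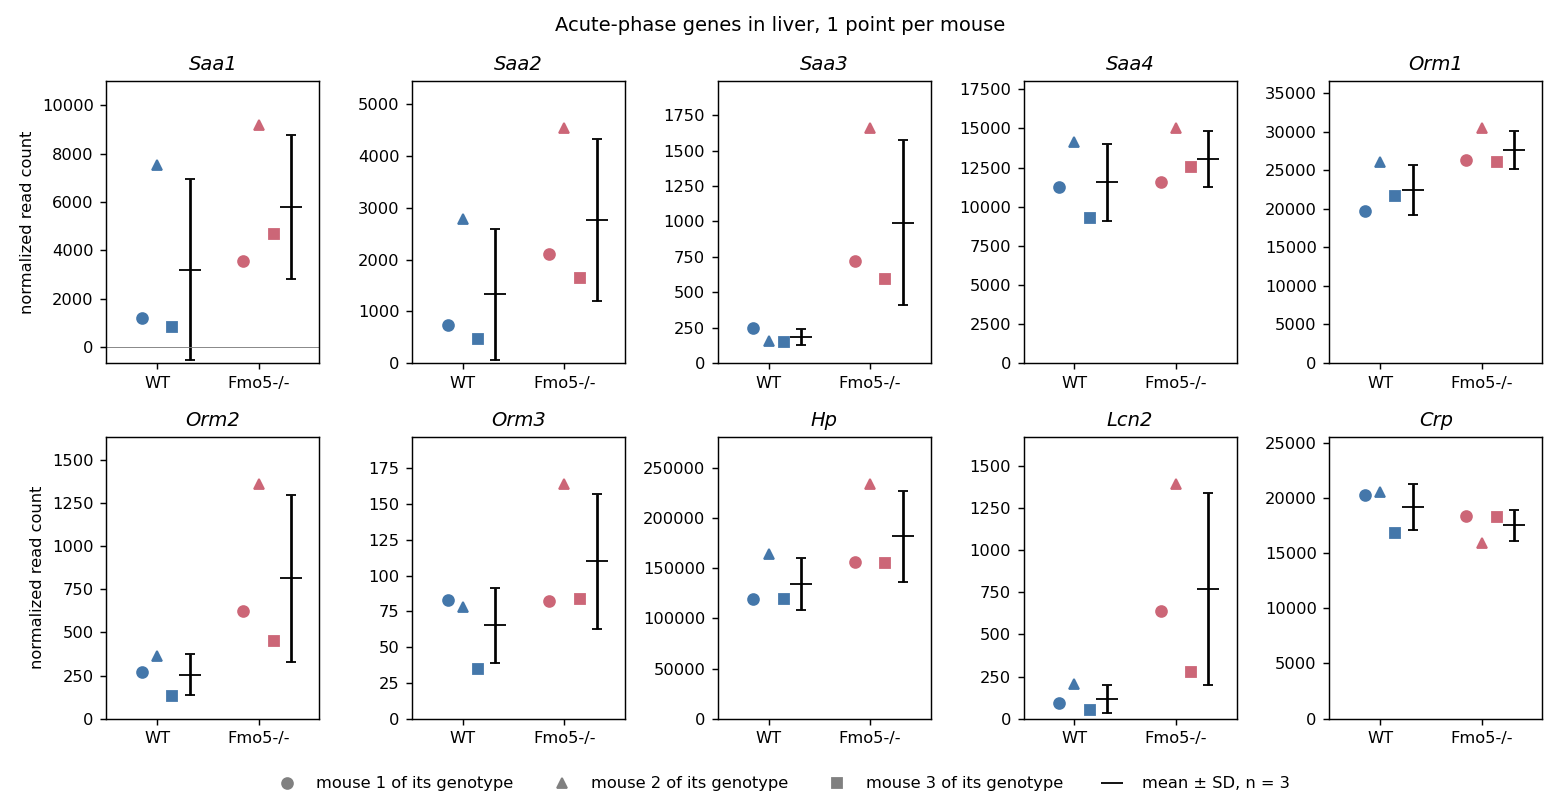
Normalized read counts (linear axis, a scale of its own for each gene) of the 10 members in the liver of 3 WT (blue) and 3 Fmo5-/- (red) mice, 1 symbol per mouse, with the mean ± SD of each genotype in black. Saa3, Lcn2, Orm2 and, narrowly, Orm1 do not overlap between genotypes, and mouse 2 of each genotype is the highest of its group in 7 of 10 members. The SD of Saa1 in WT reaches below 0 because 1 mouse was far above the others.

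Saa3 encodes the serum amyloid A that is made mainly outside hepatocytes. It had 249, 155 and 150.3 normalized counts in the WT mice and 721, 1659.5 and 592 in the Fmo5-/- mice. The lowest Fmo5-/- mouse was well above the highest WT mouse. The means were 185 ± 55.6 and 991 ± 583 (SD, n = 3 each), and the log2 fold change was 2.42 ± 0.49 (SE; 95% interval 1.19 to 3.65), which is 5.36-fold. The adjusted p was 0.0776 in edgeR and 0.000236 in DESeq2. Without Fmo5-/- mouse 2, which was the highest, the log2 fold change was 1.83 with an adjusted p of 0.0221 in edgeR (0.337% of genes were called higher in that fit), and without any other mouse the adjusted p lay above 0.05.

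Lcn2 encodes lipocalin 2, which binds bacterial siderophores and so keeps iron from bacteria. It had 90.0, 206 and 50.1 normalized counts in WT and 637, 1396 and 277 in Fmo5-/- mice. The groups did not overlap, but Fmo5-/- mouse 3 lay closer to WT mouse 2 than to the other Fmo5-/- mice. The log2 fold change was 2.75 ± 0.84 (95% interval 0.55 to 4.94), with an adjusted p of 0.163 in edgeR and 0.0224 in DESeq2. Without Fmo5-/- mouse 2 it was 1.99, and without WT mouse 2 it was 3.46.

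Orosomucoid, or alpha-1-acid glycoprotein, binds basic drugs and damps inflammation. Orm1, the abundant copy, had 19699, 25989.9 and 21650.2 normalized counts in WT and 26354, 30452 and 26079 in Fmo5-/- mice. The gap between the genotypes was small, since the lowest Fmo5-/- mouse was barely above WT mouse 2. The log2 fold change of Orm1 was 0.30 ± 0.12 (95% interval 0.03 to 0.57, adjusted p = 0.193). Orm2 had 268, 366 and 132 normalized counts in WT and 626, 1364 and 449.6 in Fmo5-/- mice. Here too the genotypes did not overlap, and Fmo5-/- mouse 2 was far above the other 2. The log2 fold change of Orm2 was 1.68 ± 0.58 (95% interval 0.18 to 3.17, adjusted p = 0.191 in edgeR and 0.0765 in DESeq2), and it was 1.08 without Fmo5-/- mouse 2. Orm3 was low, with 82.6, 78.1 and 34.8 normalized counts in WT and 82.0, 164 and 83.4 in Fmo5-/- mice. Only Fmo5-/- mouse 2 stood clear of WT mice 1 and 2, and the log2 fold change was 0.76 ± 0.39 (adjusted p = 0.302).

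The balance of the 3 orosomucoid genes is given as a description with no test. The ratio of Orm1 to Orm2 counts was 73.5, 71.0 and 164 in the WT mice and 42.1, 22.3 and 58.0 in the Fmo5-/- mice. The ratio of Orm2 to Orm3 counts was 3.24, 4.69 and 3.79 in WT and 7.64, 8.30 and 5.39 in Fmo5-/- mice. Neither ratio overlapped between genotypes, with Orm2 higher against both neighbours in every Fmo5-/- mouse. When the counts of the 3 genes were summed, which lets Orm1 dominate and does not bring back the shared reads, the log2 fold change was 0.33 ± 0.13 (SE) with an adjusted p of 0.174.

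Saa1 and Saa2 are the serum amyloid A genes that hepatocytes induce most, and their proteins replace apolipoprotein A-I on high-density lipoprotein. Saa1 had 1226, 7525 and 857 normalized counts in WT and 3562, 9169 and 4673 in Fmo5-/- mice. WT mouse 2 was above 2 of the 3 Fmo5-/- mice, while WT mice 1 and 3 were below all of them. The log2 fold change of Saa1 was 0.86 ± 1.01 (95% interval -1.81 to 3.53, adjusted p = 0.686). Saa2 had 742, 2782 and 464 normalized counts in WT and 2103, 4542 and 1639.5 in Fmo5-/- mice, with the same mouse out of order. Its log2 fold change was 1.06 ± 0.85 (95% interval -1.20 to 3.31, adjusted p = 0.545). These intervals hold both no difference and a difference as large as that of Saa3. Without WT mouse 2 the log2 fold change was 2.48 ± 0.54 for Saa1 (adjusted p = 0.168) and 2.19 ± 0.62 for Saa2 (adjusted p = 0.222), and without Fmo5-/- mouse 2 it was 0.36 and 0.50. With Saa1 and Saa2 summed, it was 0.92 ± 0.96 (adjusted p = 0.643).

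WT mouse 2 separated Saa1 from Saa3. The ratio of Saa1 to Saa3 counts was 4.93 and 5.70 in WT mice 1 and 3, 48.5 in WT mouse 2, and 4.94, 5.52 and 7.89 in the Fmo5-/- mice. In WT mouse 2, Saa1 was 7.23-fold and Saa2 4.61-fold the mean of the other WT mice, whereas Saa3 was 0.777-fold. In Fmo5-/- mouse 2, by contrast, Saa1, Saa2 and Saa3 were 2.23-fold, 2.43-fold and 2.53-fold the mean of the other Fmo5-/- mice. The ratio of Saa1 to Saa2 counts was 1.65 to 2.71 in WT and 1.69 to 2.85 in Fmo5-/- mice, so the near-identical pair kept similar proportions in both genotypes.

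The abundant members Saa4, Hp and Crp had log2 fold changes from -0.13 to 0.44. Saa4, the constitutive serum amyloid A, had 11277, 14160.5 and 9251 normalized counts in WT and 11602, 15023 and 12503 in Fmo5-/- mice, with a log2 fold change of 0.17 ± 0.16 (95% interval -0.19 to 0.54, adjusted p = 0.578). Hp encodes haptoglobin, which binds free haemoglobin. It had 119346, 163931 and 118978 normalized counts in WT and 156168, 234743 and 155407 in Fmo5-/- mice, where WT mouse 2 lay above 2 of the Fmo5-/- mice. The log2 fold change of Hp was 0.44 ± 0.19 (95% interval -0.0047 to 0.89, adjusted p = 0.233). Crp encodes a pentraxin that binds phosphocholine on microbes and dying cells. It had 20295, 20546 and 16802 normalized counts in WT and 18385, 15927 and 18259.7 in Fmo5-/- mice, the only member with a fold change below 0 (log2 -0.13 ± 0.11, 95% interval -0.38 to 0.11, adjusted p = 0.525). The plot of fold changes shows that the interval of Crp reaches no further than 0.38 from 0 on the log2 scale, while those of Saa1, Saa2 and Lcn2 span several units.

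**Figure D2:**
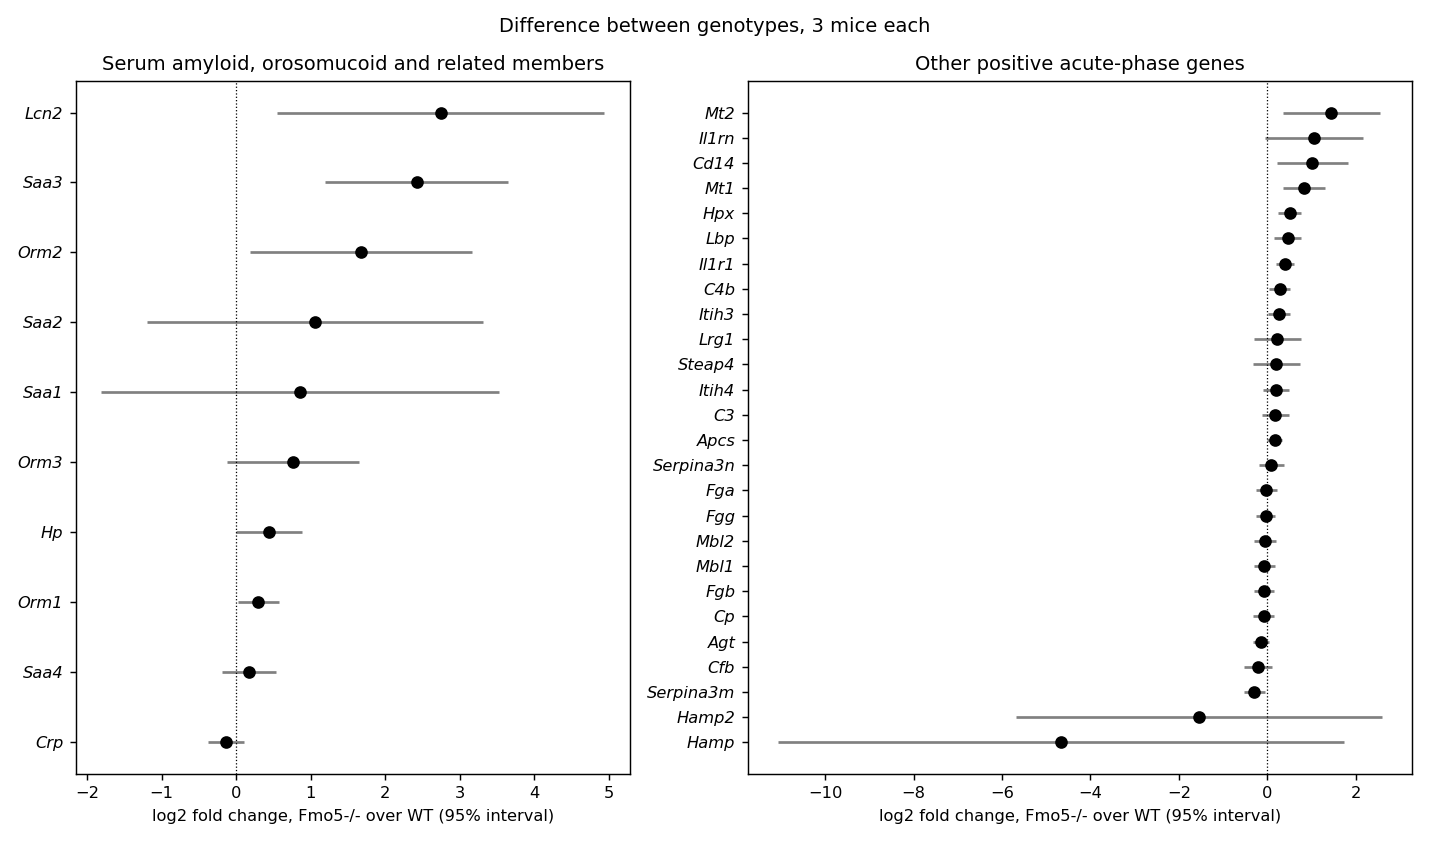
Log2 fold change, Fmo5-/- over WT, with its 95% interval from edgeR's quasi-likelihood fit (3 mice per genotype), for the 10 members on the left and 26 other positive acute-phase genes on the right, each panel with its own axis. Lcn2, Saa3, Orm2 and Orm1 have intervals above 0 among the members, and the widest interval of all is that of Hamp.

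The spread between mice of a genotype was itself a feature of the inducible members. The pooled within-genotype SD of log2 CPM was 1.29 for Saa1, 1.09 for Saa2 and 1.09 for Lcn2, wider than in 99.8%, 99.5% and 99.5% of all genes tested, whose median was 0.178. It was 0.784 for Orm2, 0.626 for Saa3 and 0.620 for Orm3, above 95% of genes in each case. Hp (0.306), Saa4 (0.256), Orm1 (0.169) and Crp (0.142) were closer to the median gene, but they are abundant, and among genes whose normalized count averaged at least 500 the SD of Hp was wider than in 94.2%, that of Saa4 than in 91.2%, that of Orm1 than in 76.6% and that of Crp than in 65.1%. From the lowest to the highest WT mouse, Saa1 differed 8.78-fold, Lcn2 4.12-fold and Saa3 1.66-fold. From the lowest to the highest Fmo5-/- mouse, they differed 2.57-fold, 5.04-fold and 2.80-fold.

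Mouse 2 was the highest WT mouse in 8 of 10 members and the highest Fmo5-/- mouse in 9 of 10, and both held for 7 of 10 members. Over all genes tested, WT mouse 2 was the highest of its group in 34.5%, Fmo5-/- mouse 2 in 35.6%, and both in 9.87%. The plot with each mouse left out shows how much of each fold change rests on these 2 mice. The sign of every member's fold change was the same with any 1 mouse left out. With a mouse left out, the log2 fold change ranged from 0.04 to 0.35 for Saa4, 0.22 to 0.42 for Orm1, 0.35 to 0.97 for Orm3, 0.22 to 0.61 for Hp and -0.22 to -0.07 for Crp.

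**Figure D3:**
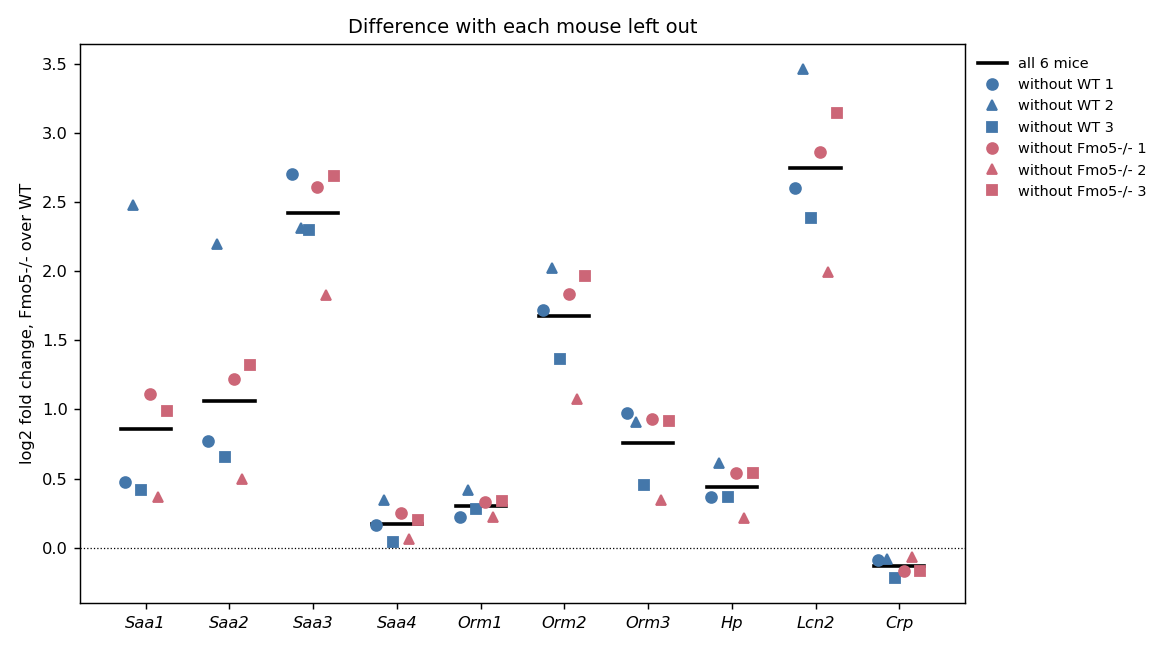
Log2 fold change, Fmo5-/- over WT, of each member with all 6 mice (black line) and with each mouse left out in turn (blue, a WT mouse left out; red, an Fmo5-/- mouse left out). Leaving out WT mouse 2 raises Saa1 to 2.48 and Saa2 to 2.19, leaving out Fmo5-/- mouse 2 lowers Lcn2 to 1.99 and Orm2 to 1.08, and no point crosses 0 from its line.

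Across the 6 libraries the members other than Crp varied together, with Pearson's r of log2 CPM from 0.531 (Saa3 with Saa4) to 0.983. These correlations are descriptions over 6 libraries that share the genotype difference and the scaling. The value of r was 0.974 for Saa1 with Saa2, 0.983 for Orm2 with Lcn2, 0.943 for Saa1 with Saa4 and 0.943 for Orm1 with Hp. After the mean of each genotype was subtracted, r was 0.963, 0.960, 0.945 and 0.904 for the same pairs. For Saa3, r before and after subtraction was 0.572 and 0.177 with Saa1, 0.666 and 0.358 with Saa2, 0.531 and 0.427 with Saa4, and 0.728 and 0.182 with Orm1. It was 0.903 and 0.737 with Orm2, 0.796 and 0.767 with Orm3, 0.771 and 0.568 with Hp, and 0.899 and 0.616 with Lcn2. Crp had r between -0.561 and 0.0403 with the other members.

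Outside the members, the genes most like each were sought among 7811 genes whose normalized count averaged at least 500. The 3 closest to Saa3 were Shisa5 (r = 0.997), Smpd2 (0.992) and Uba7 (0.987), the ubiquitin-like modifier enzyme that activates ISG15. Uba7 passed the test in edgeR, with a log2 fold change of 1.11 (adjusted p = 0.0430), beside 0.675% of genes called higher. Uba7 was picked by its r with Saa3, which itself did not overlap between genotypes. Such a pick favours genes that differ by genotype, so the call is not a separate result. The 3 closest to Lcn2 were Jak3 (0.995), Csf1 (0.991), the macrophage growth factor, and Iigp1 (0.989), an interferon-inducible GTPase. Those closest to Orm2 were Ppp1r12c (0.994), Ang (0.985) and Rnase4 (0.978). Rad54l2 was among the 3 closest genes of Saa1, Saa2 and Saa4, with r of 0.981, 0.948 and 0.968. These values are the highest of 7811 over 6 points and carry no test.

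Per length, the members spanned more than 3 orders of magnitude in WT liver. Levels are given as TPM, the counts per base of a gene scaled to the same total in each library, over the union of a gene's annotated exons. Hp was the highest member at 4158 ± 914 TPM (SD, n = 3) in WT and 6155 ± 1716 in Fmo5-/- mice, and it ranked 25 among 53229 genes. Orm1 followed with 1441 ± 240 and 1930 ± 224 TPM. Crp (277 ± 36.3 and 275 ± 15.1 TPM) and Saa4 (275 ± 66.1 and 337 ± 54.6 TPM) came next and did not differ beyond their spread in WT. Saa1 (65.4 ± 77.7 and 128 ± 68.8 TPM), Saa2 (26.6 ± 25.9 and 59.9 ± 35.5 TPM) and Orm2 (16.5 ± 7.95 and 57.3 ± 35.8 TPM) formed the middle, where neighbours overlapped. Orm3 (4.21 ± 1.76 and 7.74 ± 3.54 TPM), Saa3 (3.52 ± 1.05 and 20.8 ± 12.8 TPM) and Lcn2 (2.21 ± 1.61 and 16.1 ± 12.3 TPM) were lowest in WT and overlapped as well. In the Fmo5-/- mice the lowest Saa3 level lay above the highest Orm3 level (11.8 TPM), while the range of Lcn2 (5.60 to 29.6 TPM) overlapped both.

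Retained-intron transcripts lengthen the exon union of several members, so the same levels were also taken over the spliced coding transcript. On that scale Saa1 was 200 ± 238 TPM in WT and 390 ± 208 in Fmo5-/- mice, Saa2 83.2 ± 81.0 and 187 ± 110, Saa3 12.4 ± 3.68 and 73.1 ± 44.6, and Lcn2 4.77 ± 3.47 and 34.5 ± 26.3. By their WT means Hp, Orm1, Crp and Saa4 kept the same order at the top on both scales, but the distances between neighbours did not stay the same. Over the coding transcript, Crp (362 to 465 TPM in WT) lay above Saa4 (161 to 259 TPM) with no overlap, and Saa4 lay within the range of Saa1 in WT. In Fmo5-/- mice the mean of Saa1 was above that of Saa4 (253 ± 39.6 TPM), with ranges that overlapped.

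**Figure D4:**
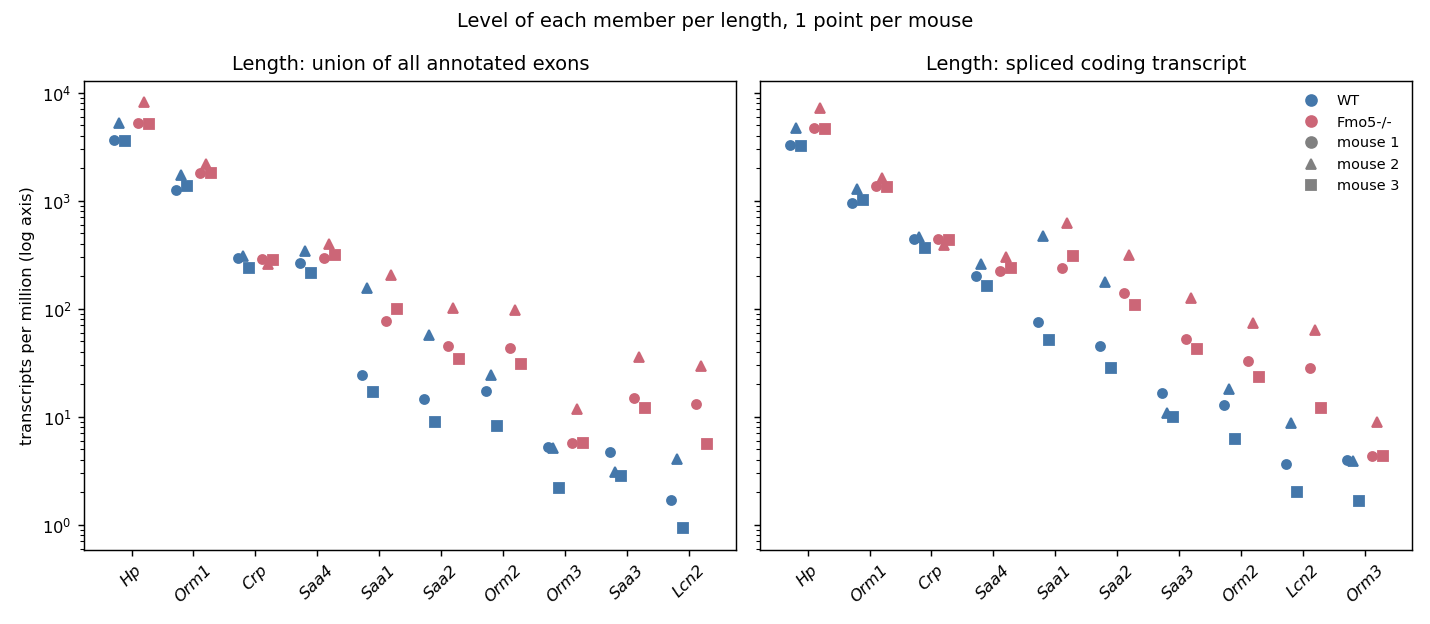
Level in TPM (log axis) of each member in 3 WT (blue) and 3 Fmo5-/- (red) mice, with the length of a gene taken as the union of its exons (left) or its spliced coding transcript (right), members ordered by their WT mean. Hp and Orm1 are the highest on both scales, and Saa1, Saa2 and Saa3 move up relative to the other members when retained introns are left out.

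The promoters of 8 of the 10 members were in the RefSeq promoter table (GRCm38.p6), all but Orm1 and Hp. The binding motif of the C/EBP factors, TTNNGCAA on either strand, occurred in 7 of these 8 promoters, all but that of Crp, and in 10.8% of all 32851 promoters of the same 300-base length. The promoters of Saa1 and Saa2 were 95.6% identical and those of Orm2 and Orm3 89.0% identical, so these matches are not independent. A start here is that of the RefSeq table, which is not always that of the GENCODE gene. The 250 bases before the start are shown for the pair Saa1 and Saa2, and for Saa3, Orm2 and Lcn2, the 3 members with the highest fold changes, with motif matches in capitals. They lie at chr7:46742981-46743230 (minus strand), chr7:46751583-46751832 (plus strand), chr7:46715677-46715926 (minus strand), chr4:63362199-63362448 (plus strand) and chr2:32387740-32387989 (minus strand). The Lcn2 window lies wholly, and the Saa2 and Saa3 windows partly, within the GENCODE gene placed above.
Saa1: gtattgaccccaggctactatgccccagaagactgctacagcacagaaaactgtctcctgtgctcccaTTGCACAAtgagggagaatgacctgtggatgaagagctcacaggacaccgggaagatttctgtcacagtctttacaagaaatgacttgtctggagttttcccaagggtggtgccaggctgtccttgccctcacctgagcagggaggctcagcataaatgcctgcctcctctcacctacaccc
Saa2: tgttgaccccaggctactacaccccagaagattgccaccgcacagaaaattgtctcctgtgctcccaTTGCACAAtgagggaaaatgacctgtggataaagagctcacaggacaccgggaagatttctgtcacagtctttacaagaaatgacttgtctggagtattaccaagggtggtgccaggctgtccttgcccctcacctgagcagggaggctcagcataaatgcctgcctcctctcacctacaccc
Saa3: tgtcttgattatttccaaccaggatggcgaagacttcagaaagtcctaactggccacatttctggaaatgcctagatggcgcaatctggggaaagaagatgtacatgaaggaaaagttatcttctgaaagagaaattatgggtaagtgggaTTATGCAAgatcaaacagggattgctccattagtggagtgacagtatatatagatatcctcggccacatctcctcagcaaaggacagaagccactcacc
Orm2: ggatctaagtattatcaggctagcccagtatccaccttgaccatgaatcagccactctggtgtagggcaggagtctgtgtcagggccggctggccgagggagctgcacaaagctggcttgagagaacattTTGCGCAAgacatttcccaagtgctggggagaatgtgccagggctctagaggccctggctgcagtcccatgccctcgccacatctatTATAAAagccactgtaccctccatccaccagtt
Lcn2: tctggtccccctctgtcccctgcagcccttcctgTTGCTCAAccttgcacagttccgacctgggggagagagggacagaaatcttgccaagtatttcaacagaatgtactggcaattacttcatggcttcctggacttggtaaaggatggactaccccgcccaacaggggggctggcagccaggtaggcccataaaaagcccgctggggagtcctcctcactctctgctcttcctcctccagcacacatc

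The match began 182 bases before the start in Saa1, 183 in Saa2, 99 in Saa3, 120 in Orm2 and 216 in Lcn2. In Orm2 the match, TTGCGCAA, reads as the motif on both strands, and a TATA box (TATAAA) began 33 bases before the start. TATAAA occurred in 3 of the 8 promoters (Crp, Orm2 and Orm3) and in 13.6% of all. The STAT motif TTCNNNGAA occurred in 0 of 8 (8.30% of all promoters), an NF-kB motif in 0 of 8 (1.63%) and a glucocorticoid response element in 0 of 8 (0.00913%). A match is a description of the letters and not a binding site, and the absence of one says only that these letters are not in this window.

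Among the other genes of the response, 26 further positive acute-phase genes were listed and 0 passed the adjusted test in edgeR, while 8 were higher and 1 lower at an unadjusted p under 0.05. DESeq2 called 5 of the 26 higher (Hpx, Lbp, Mt1, Cd14 and Il1r1) and 0 lower. The median log2 fold change of the 26 was 0.17. For this list and those below, the shares over all genes stand as follows. In edgeR 0.675% were called higher and 0.693% lower, and in DESeq2 4.75% and 4.21%. At an unadjusted p under 0.05 in edgeR, 11.6% were higher and 10.2% lower. No overlap held for 13.9% higher and 13.5% lower. Hpx, which encodes the haem-binding hemopexin, had 141024, 165675 and 147567 normalized counts in WT and 207968, 242803 and 194461 in Fmo5-/- mice, with no overlap (log2 0.51 ± 0.12, adjusted p = 0.0662 in edgeR and 0.00152 in DESeq2). Lbp, the lipopolysaccharide-binding protein, had a log2 fold change of 0.46 (adjusted p = 0.109 in edgeR and 0.0422 in DESeq2). That of Mt1, a metallothionein, was 0.83 (adjusted p = 0.0757 in edgeR and 0.00396 in DESeq2). The fibrinogen genes Fga, Fgb and Fgg had log2 fold changes of -0.03, -0.07 and -0.04, and Serpina3n, an inducible antiprotease, 0.09. Of 11 negative acute-phase genes, which include Alb and Ttr and fall in an acute-phase response, 0 passed in edgeR in either direction and their median was -0.03. Rbp4, the retinol carrier, had the lowest fold change of these (log2 -0.23, adjusted p = 0.165 in edgeR and 0.0372 in DESeq2), and it was the 1 of the 11 under an unadjusted p of 0.05.

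Of the 10 cytokine genes that drive the response, 5 were too low to test. Il6 had 4, 1 and 5 counts in the WT libraries and 3, 0 and 1 in the Fmo5-/- libraries, and Il22 had 0 counts in all 6. Tnf had 9.53, 3.35 and 7.16 normalized counts in WT and 22.4, 33.0 and 14.7 in Fmo5-/- mice, a log2 fold change of 1.78 with an adjusted p of 0.0763. Of the 10 receptor chains, 0 passed. Il1r1, the IL-1 receptor, had the lowest adjusted p of them at 0.0606 (log2 0.39 ± 0.09). Of the 10 genes for JAK kinases, STAT3 and its inhibitors, 0 passed, and the log2 fold change was 0.24 for Stat3, 1.23 for Socs1 and 0.68 for Socs3 (adjusted p of 0.413, 0.0908 and 0.337). Beside these 0 calls, 2 cytokine genes, 3 receptor genes and 1 JAK-STAT gene were higher and 1 receptor gene (Il1rap) was lower at an unadjusted p under 0.05, and DESeq2 called 1 gene higher in each of the 3 lists.

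Of 17 transcription factors and NF-kB inhibitors, with a median log2 fold change of 0.14, 1 passed in edgeR, 6 were higher and 0 lower at an unadjusted p under 0.05, and DESeq2 called 4 higher (Relb, Nfkb2, Nfkbiz and Tnfaip3) and 0 lower. The gene that passed in edgeR was Relb, a subunit of the non-canonical NF-kB pathway, with 110.1, 144 and 117 normalized counts in WT and 296, 330.4 and 197 in Fmo5-/- mice (log2 1.15 ± 0.21, adjusted p = 0.0447), and its call was lost without any 1 of 5 mice, all but Fmo5-/- mouse 3, and in the fit that is not robust. Its partner Nfkb2 had a log2 fold change of 0.62 (adjusted p = 0.0552). Cebpb, which encodes the C/EBP factor most tied to the acute phase, had a log2 fold change of -0.03 (adjusted p = 0.924), and Cebpa -0.08 (adjusted p = 0.778). Cebpd did not overlap between genotypes, with 178, 214 and 222 normalized counts in WT and 280, 240 and 263 in Fmo5-/- mice. Its log2 fold change was 0.35 ± 0.14 (SE; adjusted p = 0.192 in edgeR and 0.225 in DESeq2). Of the 12 glucocorticoid receptor genes and targets, 0 passed in edgeR, with a median of -0.05, 1 higher and 2 lower at an unadjusted p under 0.05, and 0 higher and 1 lower by DESeq2. Of 13 receptors and clearance partners of the member proteins, whose median log2 fold change was 0.57, 1 passed in edgeR, against 4 higher and 3 lower in DESeq2, and 9 were higher and 3 lower at an unadjusted p under 0.05. The gene that passed in edgeR was Tlr2, a receptor of bacterial lipoproteins that also binds serum amyloid A, with 83.7, 100.4 and 93.0 normalized counts in WT and 333, 381 and 193 in Fmo5-/- mice (log2 1.71 ± 0.25, adjusted p = 0.0208), and its call was lost without any 1 of the 3 WT mice (adjusted p of 0.0809, 0.05004 and 0.0544 without WT mouse 1, 2 and 3) or without Fmo5-/- mouse 1 (0.0930). Cd163, the haptoglobin-haemoglobin receptor of macrophages, had a log2 fold change of 0.75 (adjusted p = 0.153 in edgeR and 0.0203 in DESeq2). Without WT mouse 2 it was 1.09 (adjusted p = 0.0345 in edgeR), and Cd163 was the 1 partner called there. Slc22a17, a receptor of lipocalin 2, had a log2 fold change of 0.57 (adjusted p = 0.120 in edgeR and 0.0986 in DESeq2). Lrp2, which encodes megalin, another receptor of lipocalin 2, had the opposite sign, with 80.5, 107 and 149 normalized counts in WT and 43.8, 45.9 and 64.8 in Fmo5-/- mice (log2 -1.13, adjusted p = 0.0710 in edgeR and 0.00434 in DESeq2). The other 2 partners called lower by DESeq2 were the scavenger receptor Cd36 (log2 -1.34, adjusted p = 0.114 in edgeR and 0.0114 in DESeq2) and the Fc receptor Fcgr2b (log2 -0.44, adjusted p = 0.0730 and 0.0148).

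Of the cell type markers, those of macrophages are given first, since macrophages also make Saa3 and Lcn2. All 8 listed Kupffer cell and macrophage markers were tested and had a fold change above 0 (log2 0.70 to 2.24, median 1.05). The genotypes did not overlap for 7 of 8, beside 13.9% of all genes. The adjusted test was passed by 1 of 8 in edgeR and 7 of 8 in DESeq2, beside 0.675% and 4.75% of genes called higher. Clec4f, the Kupffer cell lectin, passed with 3787, 3768 and 3139.9 normalized counts in WT and 5907, 6327 and 5085 in Fmo5-/- mice (log2 0.70 ± 0.11, adjusted p = 0.0275). In edgeR 0 of the 8 passed without WT mouse 1 or 2 or Fmo5-/- mouse 1 or 2, and all 8 passed without Fmo5-/- mouse 3, a fit in which 3.54% of all genes were called higher. The summed level of the 8 markers was 9045 to 10777 normalized counts in WT and 25980.2, 24690 and 14133 in Fmo5-/- mice 1, 2 and 3, and none was at 0. Fmo5-/- mouse 2, the highest for Saa3 and Lcn2, was also the highest for 3 of the markers (Clec4f, Cd5l and Cd68), and Fmo5-/- mouse 1 was the highest for the other 5 and for the sum. WT mouse 2, the WT mouse with high Saa1, had 10777, close to the 10464 of WT mouse 1. Their part in the differences of Saa3, Lcn2 and the other members was not tested.

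Neutrophil markers were low, and 5 of the 8 listed did not pass the filter on low counts. The 3 tested were S100a8, S100a9 and Cxcr2, with log2 fold changes of 1.29, 1.26 and 0.90 and adjusted p of 0.149, 0.146 and 0.322, and 2 of the 3 were higher at an unadjusted p under 0.05 and 1 was called higher by DESeq2. The defining marker Ly6g had 0 counts in 5 libraries and 1 count in Fmo5-/- mouse 2, and Mpo had at most 4 counts in any library. The summed level was 130.3, 61.4 and 50.1 normalized counts in WT and 154, 301 and 132 in Fmo5-/- mice, narrowly without overlap. Fmo5-/- mouse 2 was the highest Fmo5-/- mouse, as it was for Lcn2. Among WT mice the sum was highest in mouse 1, whereas Lcn2 was highest in mouse 2. Monocyte markers (5 of 6 tested) all had a fold change above 0, with a median of 0.76 on the log2 scale, and 0 passed in edgeR, 3 were higher at an unadjusted p under 0.05 and 2 were called higher by DESeq2, with a summed level of 2483 to 2611 in WT and 2568 to 5406 in Fmo5-/- mice. The markers of endothelial cells, stellate cells and cholangiocytes had medians of 0.21, 0.13 and 0.03. The 7 lymphocyte markers had a median of 0.36 and 0 of them passed in edgeR, with 3 higher at an unadjusted p under 0.05 and 2 called higher by DESeq2, and their summed level was 301 to 399 normalized counts in WT and 465 to 1107 in Fmo5-/- mice. Of 6 adipocyte markers, 2 were tested and had opposite signs, Cfd with a log2 fold change of -3.21 (adjusted p = 0.0633 in edgeR and 3.44e-05 in DESeq2) and Fabp4 with 0.94 (adjusted p = 0.418 in edgeR). The 4 not tested (Adipoq, Plin1, Lep and Retn) had lower means in Fmo5-/- mice. For Adipoq, Plin1 and Lep this was set largely by WT mouse 1, where Adipoq had 40.2 normalized counts against 6.70 and 1.02 in WT mice 2 and 3. Retn did not overlap between genotypes, with 21.2, 7.81 and 3.07 normalized counts in WT and 0.932, 1.84 and 0.982 in Fmo5-/- mice. Its raw counts were 20, 7 and 3 in WT and 1, 2 and 1 in Fmo5-/- libraries. The gap was thus 3 reads against 2, within the limit of 3 counts that a count of 0 allows. WT mouse 1 was the highest WT mouse for all 6 adipocyte markers, as it was for Saa3. The part of neutrophils, monocytes, lymphocytes and adipocytes in the members' differences was not tested either.

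**Figure D5:**
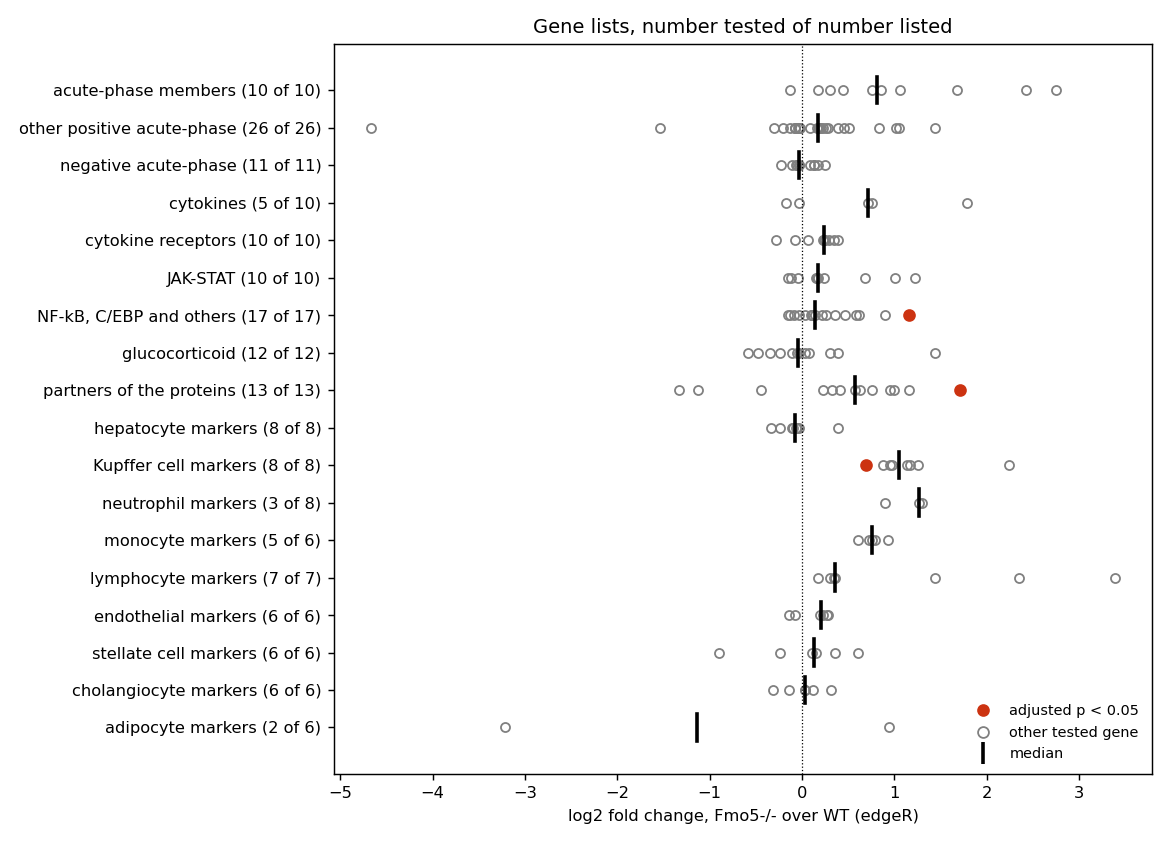
Log2 fold change, Fmo5-/- over WT, of each tested gene (open circle) of the acute-phase members, of other genes of the response and of cell type markers, with the number tested of the number listed, the median of each list (black bar) and genes with an adjusted p under 0.05 in edgeR (filled red). All 8 Kupffer cell and macrophage markers lie above 0, whereas the negative acute-phase genes and the hepatocyte markers have medians of -0.03 and -0.08.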

How the data were processed

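Liver RNA-seq libraries of 3 WT and 3 Fmo5-/- mice were analysed, grouped by the genotype in the labels. The authors clipped adapters, mapped single reads to mm10 with STAR 2.6.0c and deposited raw counts per gene, of both strands and of each strand (annotation release not given in the sources used here). The authors also deposited a DESeq2 1.22.2 comparison, whose signal columns hold the counts divided by 1 size factor per library, and whose log2 fold changes, Wald score and p-value columns hold the authors' own comparison and were not used. The deposited signal is the counts of both strands over 1 factor per library, so those counts were analysed. This was checked gene by gene for the 7728 to 7862 genes per library with a deposited signal above 500, and not for lower ones.

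Genes were joined by versioned Ensembl identifier. In R 4.3.3, genes were filtered (filterByExpr, minimum count 10), TMM factors were computed, and genotypes were tested by a robust quasi-likelihood fit in edgeR 4.0.16. P-values were adjusted by Benjamini-Hochberg over the 16734 genes kept, with a threshold of 0.05. An SE is the log2 fold change over the square root of F. Log2 CPM used a prior count of 2. With 3 mice against 3, an exact permutation test cannot give a p below 0.1, so none was run. Alternatives were DESeq2 1.42.0, other scalings and filters, counts of 1 strand, summed copies, a fit that is not robust, and each mouse left out. The steps were tested on simulated data.

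Reads counted on genes were 66.2% to 69.2% of each library, and reads that map to several places (10.4% to 13.1%) are not in the counts. Named are the members, Fmo5, genes of the lists (other acute-phase genes, cytokines, receptors, JAK-STAT, transcription factors, glucocorticoid targets, binding partners, markers of 9 cell types) and the 3 genes most like each member. The members and lists were chosen with earlier results of these data known. The coding-transcript length for TPM was added after seeing the data.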

Additional observations from a re-analysis of the deposited data

How the results depend on the processing

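Across 14 alternatives (13 for Lcn2 and Orm3, which fall under a mean of 500), each member kept the direction of its fold change. The number of members called higher was 0 in the main analysis, 2 with the DESeq2 Wald test (Saa3, log2 2.40, and Lcn2, log2 2.71), 2 with no filter except at least 1 count (Orm3, log2 0.74, adjusted p = 0.0340, and Hp, log2 0.43, adjusted p = 0.00243), 1 with the quasi-likelihood fit that is not robust (Saa3, log2 2.42, adjusted p = 0.0387) and 0 to 1 with a mouse left out. The number called lower was 0 under each. With no filter, edgeR called 1989 genes in all against 229, and the cause of this was not tested. With a mouse left out, the log2 fold change was 0.36 to 2.48 for Saa1, 0.50 to 2.19 for Saa2, 1.83 to 2.70 for Saa3, 1.08 to 2.03 for Orm2, 1.99 to 3.46 for Lcn2 and -5.10 to -4.91 for Fmo5. The main count of called genes was 0 in most of the lists and 1 in 3, so counts that stay at 0 say little about stability. These counts moved by over 1.5 times in 61 of 442 alternatives, mostly with DESeq2, with no filter or without Fmo5-/- mouse 3. No paired analysis was possible because the labels carry no replicate numbers that link WT and Fmo5-/- mice. The biological coefficient of variation in edgeR was 79.6% for Saa1, 68.6% for Saa2 and 65.2% for Lcn2, so with 3 mice per genotype the spread between mice, more than depth, set their intervals.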

Other observations

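Other values among the listed genes lie outside the acute-phase members. Hamp, the gene of the iron regulator hepcidin and itself an acute-phase gene, had 32972, 18845 and 30931 normalized counts in WT mice and 5.59, 2.75 and 3260.4 in Fmo5-/- mice. The groups did not overlap, yet the spread among the Fmo5-/- mice left the adjusted p at 0.352 in edgeR and 0.171 in DESeq2 (log2 fold change -4.66 ± 2.38, SE). Cd8a, a marker of cytotoxic T cells, had 22.2, 7.81 and 14.3 normalized counts in WT and 86.6, 321 and 61.9 in Fmo5-/- mice (log2 3.39, adjusted p = 0.0884 in edgeR and 0.00236 in DESeq2), and Fmo5-/- mouse 2 was again the highest.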
